A study of Homo sapiens with 12 samples.

Results

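Oxidative phosphorylation is carried out by 5 multi-subunit complexes of the inner mitochondrial membrane, and most of their subunits are encoded in the nucleus and made in the cytosol. The nuclear-encoded subunits were taken by gene symbol as the NDUFA, NDUFB, NDUFC, NDUFS and NDUFV genes, SDHA to SDHD, the UQCR genes, CYC1, the COX5 to COX8 subunit genes and the older ATP5 symbols of the ATP synthase. Their FPKM, averaged across the 12 libraries, also had to reach 1. FPKM counts the sequenced fragments of a gene per kilobase of transcript and per mapped fragment of its library. Of 23615 genes listed, 82 matched the symbols and 76 met the level, among 12183 genes that met it in all. Complex I gave 36 of them, complex II 4, complex III 10, complex IV 11 and complex V 15. NDUFA4, named after complex I and known as a subunit of complex IV, and COX7A2L, which takes part in assembling supercomplexes, were counted with complex IV.

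Complex I takes electrons from NADH, and complex II takes them from succinate as part of the citric acid cycle. Complex III passes them to cytochrome c, and complex IV passes them on to oxygen. Complexes I, III and IV pump protons out of the matrix, and complex V, the ATP synthase, lets the protons back and makes ATP. Complexes I, III, IV and V also hold subunits encoded in mitochondrial DNA, so that the nuclear mRNAs give only part of each of these machines. The transcription factors NRF1, GABPA (an ETS factor) and YY1 are known to act on many of the nuclear genes.

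The libraries were made from poly(A) RNA of HEK293T cells, an established cell line of human embryonic kidney origin that expresses an SV40 antigen. Cells had 18 h of 2 μM CP25, a macrocyclic compound that the labels describe as an inhibitor of the human mRNA-decapping enzyme Dcp2, or the same volume of vehicle, a peptide storage buffer. Transcription was then stopped with 5 μg/mL actinomycin D, which every group received, and RNA was taken at 2 h or at 0 h. There were 4 groups of 3 libraries, with CP25 or with vehicle, at 2 h and likewise at 0 h. The labels number the libraries 1 to 3 in each group and do not call them separate cultures, so the p-values measure only how far these libraries spread, and that spread may be technical. A single line in culture was used.

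The label of the cells was checked against marker genes. All 6 genes listed as expressed in the line reached a mean of 1 FPKM over the 12 libraries, from LHX1 with 1.21 FPKM to VIM with 216 FPKM. At 2 h LHX1 had only 0.900 FPKM in CP25 and 0.860 FPKM in vehicle, and PAX2 0.931 FPKM and 0.883 FPKM. Of 9 markers of blood, fibroblast, endothelial, liver and muscle cells, COL1A1 was the only one above 1 FPKM, with 3.23 FPKM, and CD3E and MYH7 were listed at 0. Estimated depth was 22.1 to 29.6 × 10⁶ fragments in the libraries taken at 2 h, against 13.2 to 22.4 × 10⁶ in those taken at 0 h, which put 245 to 66282 fragments behind a subunit mRNA in a library, with a median of 3395. The libraries numbered 1 stood apart at 0 h. The one from CP25-treated cells had the lowest value of its group for 75 of the 76 subunit mRNAs, and the one from vehicle-treated cells for 69. The main results that rest on 0 h are therefore also given without them.

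The promoters of these genes were read for short motifs of the known regulators, since the members belong to 1 pathway whose genes are served by the same factors. RefSeq (GRCh38.p14) gave the 250 bases before and 50 bases after the transcript start for 62 of the 76 genes. The NRF1 core GCATGCGC, sought on both strands, was in 14 of them (22.6%), against 6.79% of 9646 genes of at least 1 FPKM and 3.68% of all 27305 promoters in the table. Windows of 30 bases around the core are shown for 4 genes, 1 of each of complexes I, II, IV and V, in the direction of transcription and with the core in capitals. NDUFS7 is a complex I core subunit (chr19:1383823-1383852, plus strand), SDHB the iron-sulfur subunit of complex II (chr1:17054214-17054243, minus strand), COX5B a complex IV subunit (chr2:97645915-97645944, plus strand) and ATP5J a stalk subunit of complex V (chr21:25735156-25735185, minus strand).
NDUFS7: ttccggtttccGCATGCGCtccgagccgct
SDHB: aagccaaatggGCATGCGCcgctactgcgc
COX5B: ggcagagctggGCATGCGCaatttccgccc
ATP5J: ccactcaaagaGCGCATGCgtacagagcaa
In ATP5J the capitals are the core read from the opposite strand. The ETS core CCGGAAG was in 19 of the 62 promoters (30.6%, against 23.4% of the genes of at least 1 FPKM), and the YY1 motif AAGATGGCG in 9 (14.5%, against 5.07%). SDHB and ATP5J held all 3 motifs. A match is a description of these letters in this window, and no binding was measured. The 14 genes with the NRF1 core had a median level of 151 FPKM, against 113 FPKM in the 48 without it.

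The subunit mRNAs were abundant, with a median of 117 FPKM over the 12 libraries, against 11.6 FPKM for all genes of at least 1 FPKM. The mean exceeded 100 FPKM for 46 of the 76. Levels differed widely between subunits, and the highest mean was 87.3 times the lowest. COX7C, a small complex IV subunit, was highest with 866 to 897 FPKM in CP25 and 902 to 961 FPKM in vehicle at 2 h, and 672 to 838 FPKM in CP25 and 619 to 802 FPKM in vehicle at 0 h. UQCRHL was lowest with a mean of 9.46 FPKM. It is a near copy of UQCRH, the complex III hinge protein, which had 548 FPKM, so reads may have been divided between them and its value is uncertain.

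**Figure D1:**
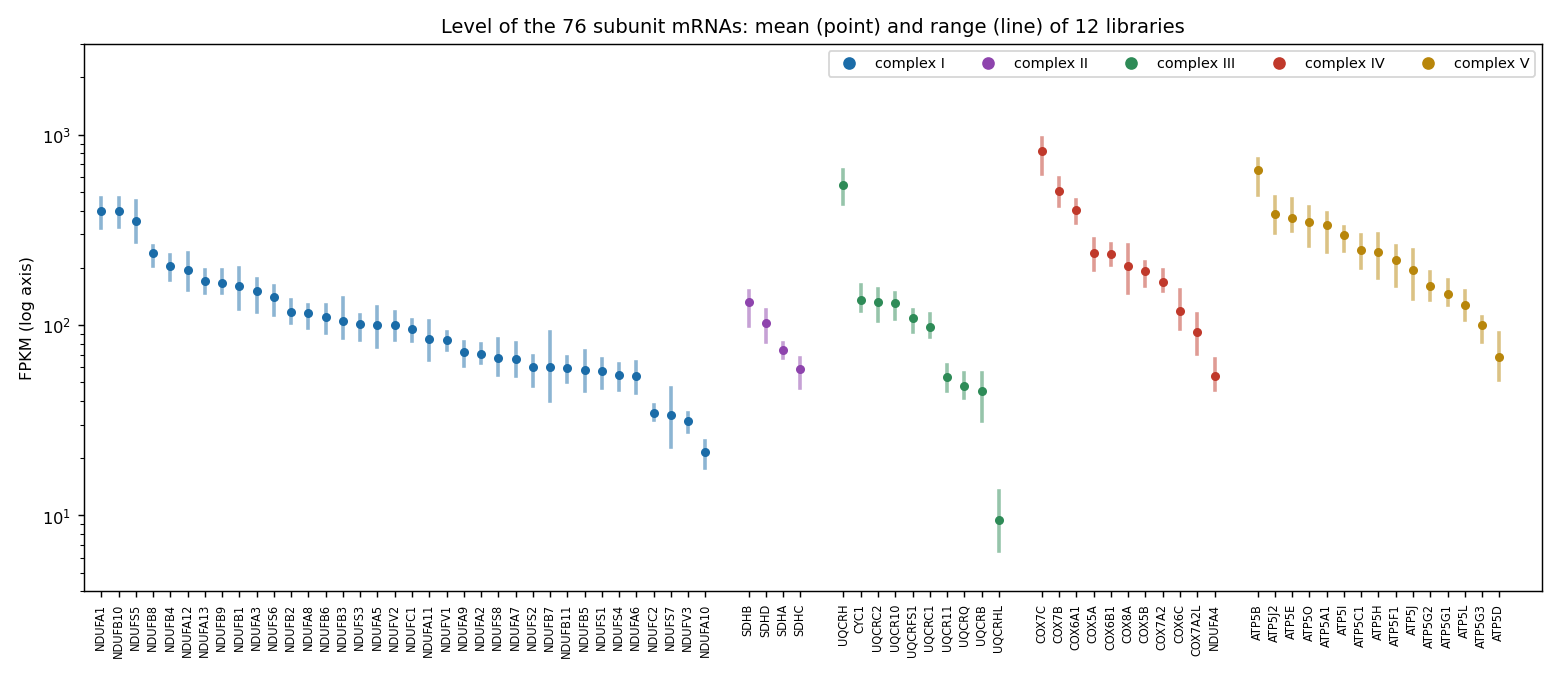
FPKM on a log axis of each of the 76 subunit mRNAs, grouped by complex and ordered by level; the point is the mean and the line the range of the 12 libraries. COX7C (826 FPKM), ATP5B (655 FPKM) and UQCRH (548 FPKM) stand highest, and UQCRHL (9.46 FPKM) lies below all others.

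By complex, the median level was 97.4 FPKM for complex I, 88.3 FPKM for complex II, 104 FPKM for complex III, 205 FPKM for complex IV and 241 FPKM for complex V. In complex I, means ran between 397 FPKM for NDUFB10 and 21.5 FPKM for NDUFA10, both accessory subunits. The 4 subunits of complex II lay close together, with 132 FPKM for SDHB, 102 FPKM for the membrane anchor SDHD, 74.3 FPKM for the flavoprotein SDHA and 58.6 FPKM for the other anchor SDHC. In complex IV, NDUFA4 had the lowest mean, 54.0 FPKM. In complex V, ATP5B, the catalytic beta subunit, had 655 FPKM and ATP5D, the delta subunit of the same F1 head, 67.9 FPKM. The c subunit of the rotor ring is encoded by 3 genes that give the same mature protein, and all 3 were expressed, ATP5G2 with 160.2 FPKM, ATP5G1 with 146 FPKM and ATP5G3 with 100.2 FPKM.

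For the subunits with tissue-specific copies, only the general form was measured at 1 FPKM or more. COX6A1 had 401 FPKM, and its muscle form COX6A2 was listed at 0 in all 12 libraries. COX7A2 had 169 FPKM, and the muscle form COX7A1 0.0372 FPKM. COX6B1 had 236 FPKM and its testis form COX6B2 0.367 FPKM, COX8A had 205 FPKM and COX8C 0.0931 FPKM, and COX7B had 505 FPKM while COX7B2 was listed at 0. These 5 forms and UQCRBP1, with 0.00990 FPKM, are the 6 matched genes left out for low level.

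After 2 h without transcription, more subunit mRNAs took a larger share of the library than a smaller one, while most of all mRNAs took a smaller one. The values of the 2 times stand in separately made tables, so no test was made between them. As FPKM is a share, an mRNA that decays more slowly than the average one has a higher value at 2 h with no new transcript made. Its total is not fixed. Over all genes of at least 1 FPKM the mean sum was 535632 at 2 h, against 483366 at 0 h, in CP25, and 507577 against 479408 in vehicle. Over the subunit mRNAs it was 13604 against 12523 in CP25, and 13798 against 12049 in vehicle. The log2 ratio of mean FPKM + 1, 2 h over 0 h, had a median of 0.11 in CP25 and 0.18 in vehicle over the 76 subunit mRNAs, against -0.16 in CP25 and -0.18 in vehicle over all genes of at least 1 FPKM. It was above zero for 50 subunit mRNAs in CP25 (65.8%) and 59 in vehicle (77.6%), against 34.2% of all genes in CP25 and 32.0% in vehicle. All 3 libraries at 2 h were higher than all 3 at 0 h for 29 subunit mRNAs in CP25, against 15.5% of all genes, and for 40 in vehicle, against 15.0%. All 3 were lower for 6 in CP25, against 44.0% of all genes, and for 4 in vehicle, against 46.0%. Without the libraries numbered 1 at 0 h, the median was 0.02 in CP25 and 0.12 in vehicle, with 40 (52.6%) and 51 (67.1%) subunit mRNAs above zero, while the medians of all genes were -0.15 in CP25 and -0.17 in vehicle. All 2 h libraries were then higher for 29 subunit mRNAs in CP25, against 17.3% of all genes, and for 40 in vehicle, against 16.7%. Leaving out libraries cannot lower such a count. Those left out had the highest value of their group for 0 members in CP25 and 2 in vehicle, so these counts could hardly change. All 2 h libraries were lower for 23 in CP25 (30.3%, against 48.0% of all genes) and for 15 in vehicle (19.7%, against 51.9%). Ratios above those of all genes were also seen in other gene groups, with a median of 0.27 in CP25 and 0.35 in vehicle over 81 cytoplasmic ribosomal protein mRNAs, with 82.7% and 91.4% above zero, and of 0.08 in CP25 and 0.09 in vehicle over 76 mitochondrial ones, with 57.9% and 61.8% above zero. Without the libraries numbered 1 at 0 h, the cytoplasmic group had a median of 0.16 in CP25 and 0.25 in vehicle, with 72.8% and 79.0% above zero. The mitochondrial group then had 0.00938 in CP25 and 0.02 in vehicle, with 51.3% and 55.3% above zero. No test was made between these groups of genes.

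**Figure D2:**
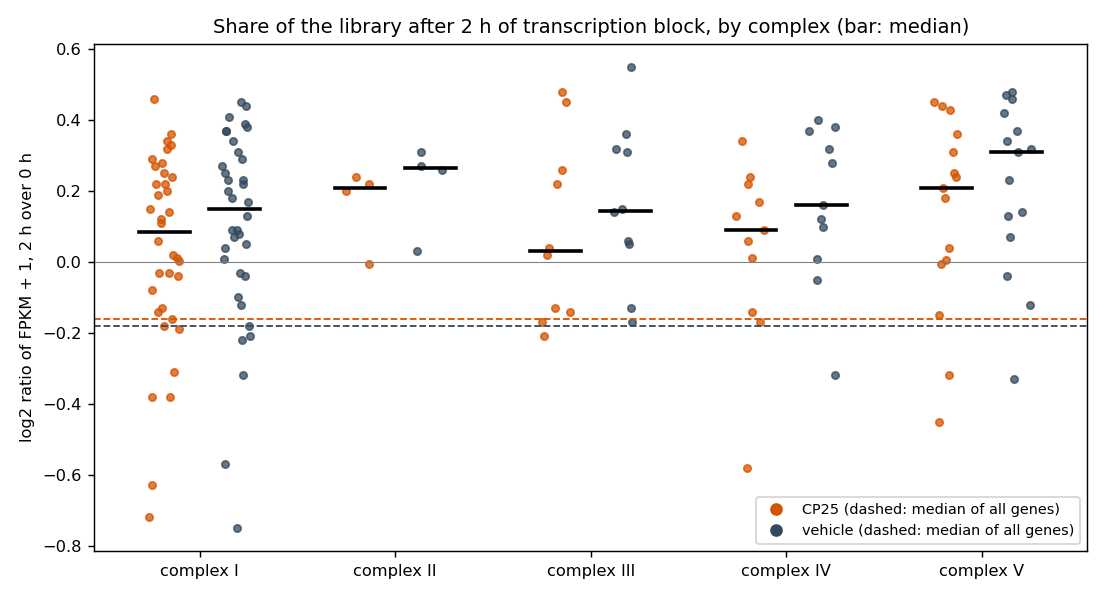
Log2 ratio of FPKM + 1 at 2 h over 0 h for each subunit mRNA, by complex, with CP25 left of vehicle; bars are medians and dashed lines the medians of all genes of at least 1 FPKM. Every median lies above both dashed lines (-0.16 in CP25 and -0.18 in vehicle). Complexes I and V each have a few members far below their median, and in complex IV COX8A lies far below it.

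The members differed widely among themselves. The peripheral stalk of the ATP synthase (ATP5F1, ATP5H, ATP5J and ATP5O), which holds the head still against the rotor, had the highest ratios of the subassemblies, with a median of 0.43 in CP25 and 0.47 in vehicle. The 3 c-ring genes had a median of -0.15 in CP25 and -0.04 in vehicle, although they serve the same enzyme. The c-ring genes also differed among each other: ATP5G2 had -0.32 in CP25 and -0.12 in vehicle, whereas ATP5G3 had -0.00495 in CP25 and 0.23 in vehicle. The 7 core subunits of complex I had a median of 0.02 in CP25 and 0.09 in vehicle, and the 29 accessory ones 0.11 in CP25 and 0.17 in vehicle. With all libraries, each of these medians was above that of all genes, although that of the c ring in CP25 lay next to it (-0.15, against -0.16). Without the libraries numbered 1 at 0 h, the c-ring median was -0.26 in CP25, below the -0.15 of all genes, and -0.13 in vehicle. The peripheral stalk then had 0.33 in CP25 and 0.38 in vehicle, the core subunits of complex I -0.06 and 0.01, and the accessory ones 0.00838 and 0.10. By complex the medians without these libraries lay between -0.08 in complex III and 0.13 in complex V in CP25, and between 0.07 in complex I and 0.23 in complex V in vehicle, each above that of all genes.

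ATP5J, a peripheral stalk subunit, had 227, 213 and 236 FPKM in CP25 at 2 h, against 137, 174 and 185 FPKM at 0 h. In vehicle it had 249, 223 and 214 FPKM at 2 h, against 160.0, 166 and 166 FPKM at 0 h. All libraries at 2 h were above all those at 0 h, and the value at 2 h was 136% of that at 0 h in CP25 and 139.5% in vehicle. UQCRB, a complex III subunit that holds no redox centre, had 55.2, 52.3 and 53.5 FPKM in CP25 at 2 h, against 33.4, 41.9 and 41.5 FPKM at 0 h. In vehicle it had 55.8, 53.7 and 46.9 FPKM at 2 h, against 37.1, 37.5 and 31.2 FPKM at 0 h. These groups did not overlap either, and the value at 2 h was 138% in CP25 and 148% in vehicle. Without the libraries numbered 1 at 0 h, ATP5J was at 126% in CP25 and 138% in vehicle, and UQCRB at 129% in CP25 and 152% in vehicle.

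At the other end stood NDUFB7, an accessory subunit of the complex I membrane arm. It had 42.6, 40.0 and 50.9 FPKM in CP25 at 2 h, against 60.8, 77.7 and 82.6 FPKM at 0 h. In vehicle it had 43.0, 44.8 and 48.9 FPKM at 2 h, against 63.9, 77.1 and 91.6 FPKM at 0 h. The groups did not overlap under either treatment, and 60.3% of the 0 h value was left in CP25 and 58.8% in vehicle. NDUFS7, the core subunit that carries the last iron-sulfur cluster before ubiquinone, had 23.1, 24.7 and 31.5 FPKM in CP25 at 2 h, against 36.3, 45.3 and 42.8 FPKM at 0 h. In vehicle it had 22.8, 25.9 and 31.4 FPKM at 2 h, against 31.2, 42.1 and 46.7 FPKM at 0 h, and here 1 library at 2 h reached just above the lowest at 0 h. COX8A in complex IV had a log2 ratio of -0.58 in CP25 and -0.32 in vehicle, and ATP5D in complex V -0.45 in CP25 and -0.33 in vehicle. In complex III the lowest ratio was that of CYC1, the cytochrome c1 subunit, with -0.21 in CP25 and -0.17 in vehicle. In complex II, SDHA had -0.00687 in CP25 and 0.03 in vehicle, while SDHB, SDHC and SDHD lay between 0.20 and 0.31. Without the libraries numbered 1 at 0 h the low ratios were lower still, with -0.84 in CP25 and -0.87 in vehicle for NDUFB7, -0.71 under both treatments for NDUFS7, -0.68 and -0.44 for COX8A, -0.59 and -0.44 for ATP5D and -0.31 and -0.29 for CYC1. SDHA then had -0.09 in CP25 and -0.02 in vehicle, and the other 3 subunits of complex II lay between 0.11 and 0.27.

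The members with low ratios were GC-rich. GC content of the coding sequence came from GENCODE 29, which covered all 76 genes. Across the 76 genes, coding GC content and the 2 h over 0 h log2 ratio had a Spearman rho of -0.78 and a Pearson r of -0.84 in CP25, and -0.79 and -0.82 in vehicle. These are correlations across genes that share the same libraries and are not independent replicates, so no p is given. Over the other 11298 genes with a value the rho was -0.42 in CP25 and -0.34 in vehicle. It was -0.72 in CP25 and -0.73 in vehicle for 76 mitochondrial ribosomal protein genes, and -0.59 in CP25 and -0.66 in vehicle for 81 cytoplasmic ones. Within complex I the rho was -0.82 in CP25 and -0.79 in vehicle (n = 36), within complex V -0.82 in CP25 and -0.84 in vehicle (n = 15), and within complex III -0.82 in CP25 and -0.92 in vehicle (n = 10). It was weaker within complex IV, with -0.60 in CP25 and -0.47 in vehicle (n = 11). There transcript length, picked from several sequence measures, had a rho of 0.86 in CP25 and 0.67 in vehicle, against 0.23 and 0.22 over the 76. That length is of 1 GENCODE transcript per gene, which may not be the mRNA expressed. Without the libraries numbered 1 at 0 h the rho of coding GC content was -0.80 in CP25 and -0.79 in vehicle for the 76. Base composition can also act on library preparation and sequencing, and its part in the ratio was not tested.

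**Figure D3:**
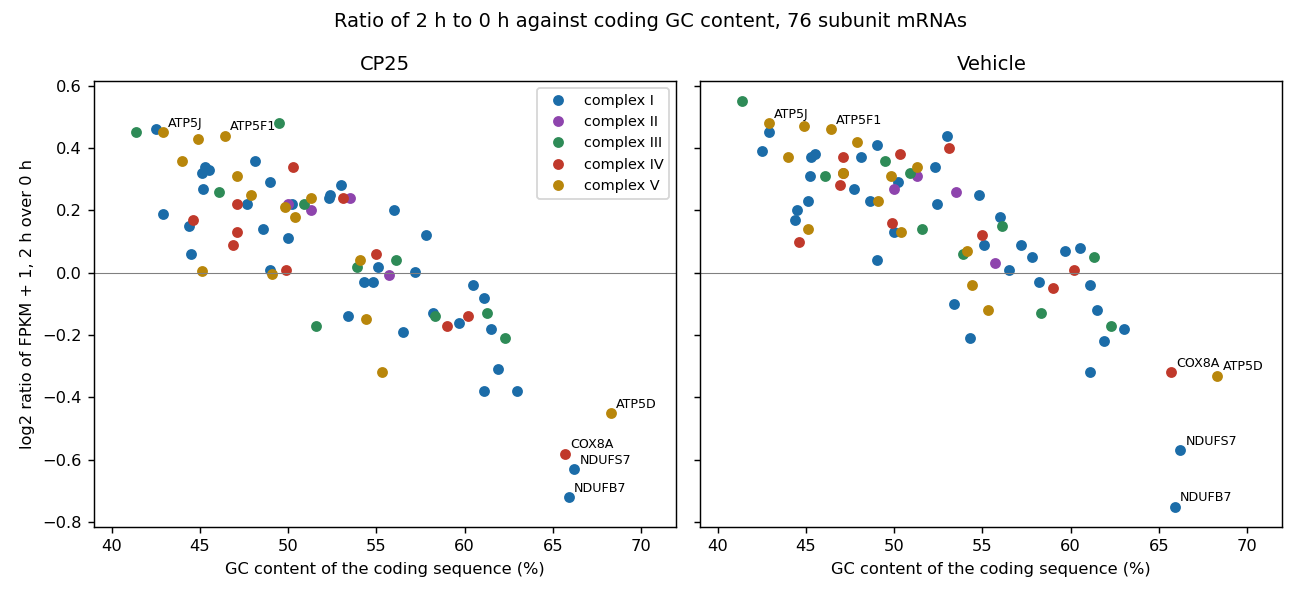
Log2 ratio of FPKM + 1 at 2 h over 0 h against GC content of the coding sequence in percent, for the 76 subunit mRNAs coloured by complex, in CP25 and in vehicle. The ratio is lower where GC content is higher in both panels (Spearman rho -0.78 in CP25 and -0.79 in vehicle), with NDUFB7, NDUFS7, COX8A and ATP5D at the GC-rich end.

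The 26 members of lowest GC content (41.4 to 49.0%) had a median ratio of 0.27 in CP25 and 0.34 in vehicle, and none of them was below zero with all libraries. The 25 members of highest GC content (55.1 to 68.3%) had a median of -0.16 in CP25 and -0.04 in vehicle, with 20 below zero in CP25 and 14 in vehicle. Without the libraries numbered 1 at 0 h, 3 of the 26 were below zero in CP25, ATP5E and NDUFB6 among them with -0.08 and -0.01, and 1 in vehicle, against 23 and 20 of the 25. The coding starts of 2 members at each end are shown for their base composition. They are the first 90 coding bases of the GENCODE 29 transcripts in GRCh38, with G or C at the last position of a codon in capitals. NDUFB7 (transcript at chr19:14566078-14572062, minus strand) and NDUFS7 (chr19:1383631-1395589, plus strand) had the lowest ratios, and ATP5J (chr21:25724480-25735673, minus strand) and ATP5F1 (chr1:111448936-111462773, plus strand) are 2 of the highest.
NDUFB7: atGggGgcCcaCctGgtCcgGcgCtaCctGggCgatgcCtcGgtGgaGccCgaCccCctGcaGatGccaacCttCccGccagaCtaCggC
NDUFS7: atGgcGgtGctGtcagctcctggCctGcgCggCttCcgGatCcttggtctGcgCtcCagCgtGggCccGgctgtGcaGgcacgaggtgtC
ATP5J: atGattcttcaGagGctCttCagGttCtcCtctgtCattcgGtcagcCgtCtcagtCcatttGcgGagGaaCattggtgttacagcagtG
ATP5F1: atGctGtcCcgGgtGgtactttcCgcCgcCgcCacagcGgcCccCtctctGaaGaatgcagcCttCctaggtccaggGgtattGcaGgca
Of these 30 codons, 27 end in G or C in NDUFB7, 21 in NDUFS7, 18 in ATP5J and 19 in ATP5F1, so that in these stretches only NDUFB7 stands apart. Over the whole coding sequence the share of codons ending in G or C was 91.2% in NDUFB7, 84.5% in NDUFS7, 45.4% in ATP5J and 45.7% in ATP5F1. Across the 76 genes, GC at the last codon position had a rho of -0.71 with the ratio in CP25 and -0.72 in vehicle, coding length a rho of 0.11 in CP25 and -0.01 in vehicle, and transcript length a rho of 0.23 in CP25 and 0.22 in vehicle.

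CP25 was compared with vehicle to ask whether inhibiting the decapping enzyme changed these mRNAs before and after the block of transcription. No subunit mRNA passed the test at either time. In such bulk samples, fewer cells with an mRNA and less of it per cell cannot be told apart. At 2 h, limma with Benjamini-Hochberg adjustment at 0.05 called 0 of the 76, and 1 gene of 11745 tested (0.00851%), the small nucleolar RNA SNORD76. At an unadjusted p under 0.05, 2 of the 76 were called, against 0.741% of all genes tested. NDUFV3, an accessory subunit of the arm of complex I that oxidises NADH, had 31.0, 31.3 and 33.4 FPKM in CP25, against 30.0, 27.8 and 27.5 FPKM in vehicle. Its CP25 libraries were all above its vehicle libraries, which held for no other member and for 2.47% of all genes, and the log2 change was 0.16 (95% interval 0.00425 to 0.32, limma adjusted p = 1.000). UQCRQ, a small complex III subunit, had 44.6, 42.1 and 46.6 FPKM in CP25, against 51.6, 47.2 and 52.5 FPKM in vehicle, a log2 change of -0.18 (95% interval -0.35 to -0.01, limma adjusted p = 1.000). The 3 CP25 libraries were below the 3 vehicle libraries for 6 members (7.89%), against 1.75% of all genes. These 6 were UQCRQ, COX7C, NDUFB6 and 3 members of the ATP synthase, ATP5A1 and ATP5B of its head and ATP5G3 of its c ring. ATP5B had 714, 707 and 692 FPKM in CP25, against 747, 737 and 725 FPKM in vehicle. COX8A had a log2 change of -0.20 (95% interval -0.41 to 0.00821) and ATP5G3 -0.13 (-0.26 to 0.00578). On the other side NDUFS1, a core subunit with iron-sulfur clusters, had 0.10 (-0.06 to 0.26) and NDUFB10 0.09 (-0.12 to 0.30).

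Over the 76, the log2 change at 2 h was above zero for 27 (35.5%), against 53.7% of all genes tested, with a median of -0.02, against 0.00558. It was above zero for 15 without CP25 library 3 and for 42 without vehicle library 1. These 2 libraries had the highest value of their group for 52 and 51 members. Between libraries of the same number, 10, 14 and 60 members were higher in CP25 for numbers 1, 2 and 3, so the libraries numbered 3 went against the others. By complex the median was -0.02 in complex I, 0.00192 in complex II, -0.02 in complex III, -0.06 in complex IV and -0.02 in complex V.

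At 0 h, limma called 0 of the 76, and 0% of the 12365 genes tested. At an unadjusted p under 0.05, 1 of the 76 was called, against 0.712% of all genes tested. NDUFC1, an accessory subunit of complex I, was that gene. It had 91.1, 99.0 and 103 FPKM in CP25, against 87.8, 86.2 and 82.8 FPKM in vehicle. It was the only member whose CP25 libraries at 0 h all lay above the vehicle libraries, as did those of 1.23% of all genes, and its log2 change was 0.19 (95% interval 0.03 to 0.35, limma adjusted p = 1.000), and 0.25 without both libraries numbered 1. For none of the 76 did all 3 CP25 libraries lie below, against 2.85% of all genes.

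Small differences at 0 h leaned the other way. The log2 change was above zero for 70 of the 76 (92.1%), against 47.5% of all genes tested, with a median of 0.05, against -0.00365. After quantile normalization of the libraries it was above zero for 60. The count was 31 without vehicle library 1, 43 without CP25 library 2, 44 without CP25 library 3, and 69 without both libraries numbered 1. The median of the members lay 0.05 above that of all genes, 0.15 above it without CP25 library 1 and at -0.00230 from it without vehicle library 1. Between libraries of the same number, 46, 70 and 62 members were higher in CP25 for numbers 1, 2 and 3. Among the members with the next smallest p were NDUFB3, with a log2 change of 0.16 (95% interval -0.00993 to 0.33), and NDUFA3, with 0.13 (-0.08 to 0.34), both accessory subunits of complex I. The only members below zero by more than 0.05 were NDUFB7 with -0.07 (-0.44 to 0.30) and UQCRHL with -0.06 (-0.38 to 0.26), and NDUFV3 had -0.02 (-0.17 to 0.12). Other genes of short coding sequence leaned the same way: up to 600 bases, the median change at 0 h was 0.06 in 56 members and 0.03 in 1376 other genes (70.8% above zero), while over 600 bases it was 0.04 in 20 members and -0.00719 in 9922 other genes. The part of length in the result was not tested. Of the cytoplasmic ribosomal protein genes 82.7% had a change above zero at 0 h, of the mitochondrial ones 69.7%, and of the assembly factors 69.8%.

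**Figure D4:**
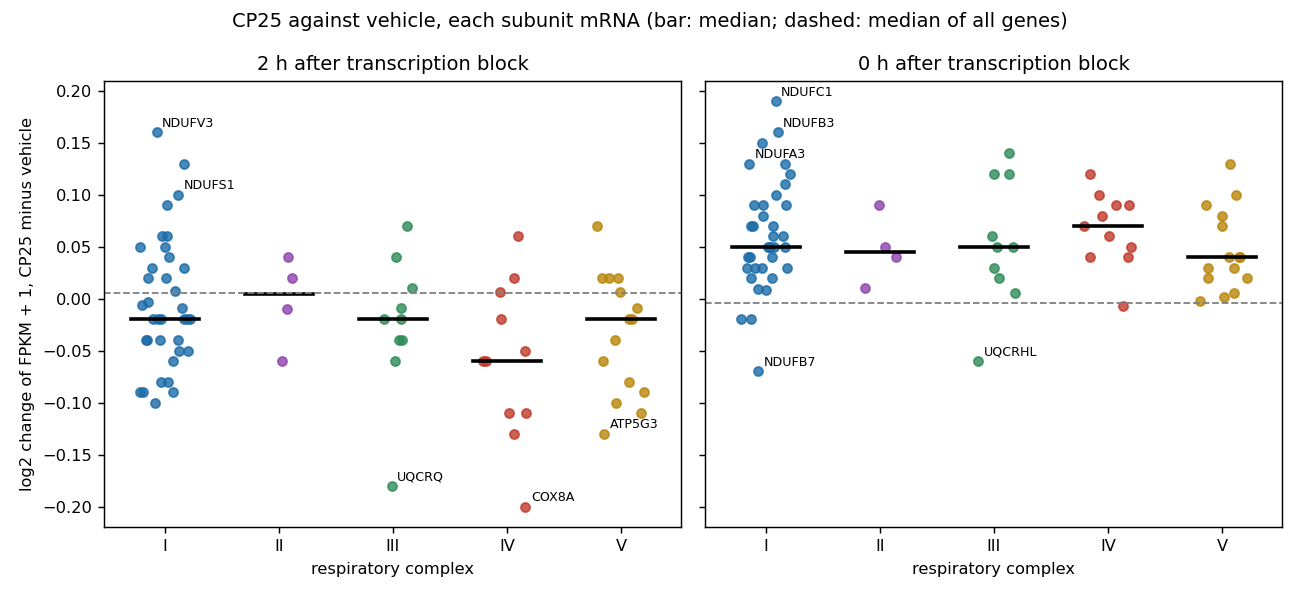
Log2 change of FPKM + 1, CP25 minus vehicle, of each subunit mRNA by complex, at 2 h on the left and at 0 h on the right; bars are medians and the dashed line the median of all genes tested. At 2 h 27 of 76 members lie above zero and at 0 h 70 of 76, and none passed the adjusted threshold.

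**Figure D5:**
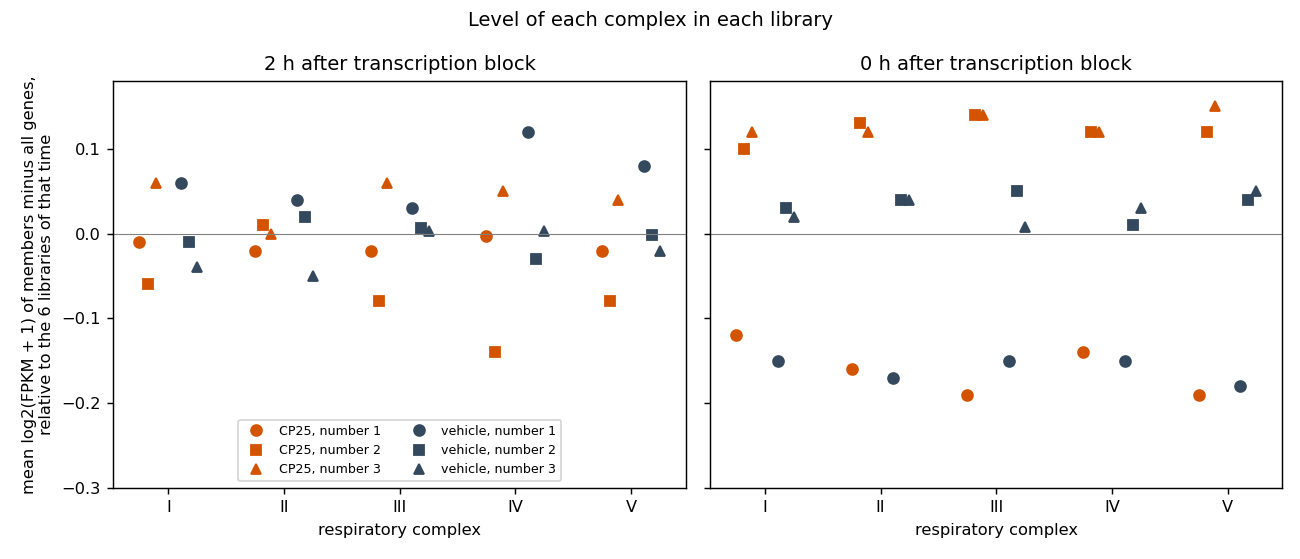
Mean log2(FPKM + 1) of the members of each complex minus that of all genes, in each library, relative to the mean of the 6 libraries of that time, with 2 h on the left and 0 h on the right and CP25 left of vehicle. At 0 h both libraries numbered 1 (circles) lie below the other 4 for each complex, from -0.12 to -0.19, and at 2 h the order of the libraries differs.

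The difference of the CP25 effects, 2 h minus 0 h, sets the loss of each mRNA after the block in CP25 against that in vehicle, and a scale factor of either table cancels in it. No member passed the adjusted threshold, nor did any of the 12183 genes tested (0%), and 1 member had an unadjusted p under 0.05, against 1.26% of all genes. It was again NDUFC1, with -0.28 (95% interval -0.51 to -0.06, limma adjusted p = 1.000), and -0.35 without both libraries numbered 1 at 0 h. At 2 h it had 98.3, 101 and 87.6 FPKM in CP25, against 107, 101 and 98.4 FPKM in vehicle, which overlapped. UQCRQ had -0.29 (-0.60 to 0.00547) and NDUFB3 -0.24 (-0.53 to 0.05), while NDUFV3 had 0.19 (-0.00795 to 0.38), NDUFS1 0.09 (-0.15 to 0.34) and UQCRHL 0.13 (-0.30 to 0.56). The difference was above zero for 11 of the 76 (14.5%), against 53.6% of all genes, with a median of -0.08, against 0.00826. It was above zero for 25.9% of the cytoplasmic and 38.2% of the mitochondrial ribosomal protein genes, and for 38.0% of the 1376 other genes with coding sequences of up to 600 bases. The 2 h over 0 h log2 ratio was lower in CP25 than in vehicle for 66 of the 76, against 45.8% of all genes. These counts come from the same libraries as the leanings at 0 h and 2 h and add nothing independent to them. The count of 11 was 4 without CP25 library 1 at 0 h, 25 without CP25 library 2 at 0 h, 32 without CP25 library 3 at 0 h, 36 without vehicle library 1 at 0 h and 7 without vehicle library 3 at 0 h. It was 23 without CP25 library 2 at 2 h, 7 without CP25 library 3 at 2 h and 24 without vehicle library 1 at 2 h.

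The intervals bound how large a change could have gone unseen. At 2 h the 95% interval of the change lay within 1.2-fold either way for 50 of the 76, against 43.1% of all genes tested. It lay within 1.5-fold for all 76, against 96.3%. At 0 h it lay within 1.2-fold for 13, against 53.7% of all genes tested, and within 1.5-fold for all 76, against 95.6%. The difference of effects was less well bounded. For it, 1 lay within 1.2-fold (against 11.9% of all genes), 72 within 1.5-fold (86.7%) and all 76 within 2-fold (97.6%). The median coefficient of variation of the members at 2 h was 6.79% in CP25 and 6.24% in vehicle, against 9.32% and 8.89% over all genes. At 0 h it was 11.0% in CP25 and 8.85% in vehicle, against 7.59% and 7.99%.

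Other genes of the pathway were followed beside the subunits, and none of them passed the adjusted threshold in any comparison. Of 10 further subunits and close partners that the symbol rule leaves out, 8 were measured. They had a median 2 h over 0 h ratio of 0.23 in CP25 and 0.30 in vehicle, between CYCS, the electron carrier cytochrome c, with 0.42 in CP25 and 0.44 in vehicle, and ATP5SL with -0.07 in CP25 and -0.11 in vehicle. COX4I1, the general form of the regulatory complex IV subunit, had 312 FPKM, and COX4I2 was listed at 0. The 43 assembly factors measured had a median ratio of 0.01 in CP25 and 0.03 in vehicle. SCO2, a copper chaperone of complex IV, was lowest with -1.35 in CP25 and -1.18 in vehicle. NDUFAF2, an assembly factor of complex I, had 0.48 in CP25 and 0.37 in vehicle. The subunits encoded in mitochondrial DNA were sought under 26 symbols, of which 0 were among the genes listed, so they were not analysed here.

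The 8 regulators of the pathway that were measured had a median 2 h over 0 h log2 ratio of -0.41 in CP25 and -0.38 in vehicle, against -0.16 and -0.18 over all genes, and 6 of them were below zero in CP25 and 7 in vehicle. PPRC1, a relative of the coactivator PGC-1α, had -1.80 in CP25 and -1.86 in vehicle, and PPARGC1B, the coactivator PGC-1β, -1.28 in CP25 and -1.35 in vehicle. NRF1 itself had -1.10 in CP25 and -1.16 in vehicle. TFAM, the mitochondrial DNA packaging and transcription factor, was the highest, with 0.15 in CP25 and 0.14 in vehicle, and GABPA had 0.07 in CP25 and -0.09 in vehicle. Between CP25 and vehicle, their log2 changes lay between -0.12 and 0.00300 at 0 h and between -0.12 and 0.12 at 2 h.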

How the data were processed

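Poly(A) RNA of HEK293T cells was measured in 12 libraries, 3 in each of 4 groups. The authors deposited FPKM per gene and library in 1 table per time. They also deposited a p-value per gene for CP25 against vehicle at each time, used here only as an alternative. The submitters' processing notes name hg19 and the tools Bowtie2 2.2.3, Trimmomatic 0.36 and CASAVA 1.8.2; the program that made the FPKM is not given in the sources used here.

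From the deposited FPKM, log2(FPKM + 1) was taken. Genes that averaged 1 FPKM or more in the libraries of a fit were tested with limma 3.58.1 (R 4.3.3), whose variance prior followed a trend with level, and p was adjusted by Benjamini-Hochberg over all genes at 0.05, within each table for each time, and as an interaction contrast over the 12 libraries. The code was tested on simulated data. Levels at 2 h against 0 h are ratios of group means, with no test. No read counts were used; depth was estimated from the step between low FPKM values of genes with 1 transcript of 1500 to 8000 bases, and is approximate. Lengths, GC content and coding sequences came from 1 GENCODE 29 transcript per gene, the longest where several ranked equal. It may not be the transcript behind the FPKM.

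The members, gene lists and motifs were chosen with earlier results of these data known. Named members are the 3 with the smallest p in each direction per test, the extremes of level and of ratio in each complex, complex II, members with paralogs, matched genes below 1 FPKM and the extremes of the other pathway lists. Complex I was divided into core and accessory subunits instead of its planned modules. Same-numbered CP25 and vehicle libraries at 2 h deviated together, with correlations over all genes of 0.354, 0.447 and 0.150. Over the 76 members the correlations were higher, at 0.673, 0.640 and 0.625. A fit with number as a block was therefore an alternative, and the main p-values and intervals come from the fit without it. The others were another pseudocount, other filters, scaling by median or quantiles, no variance trend, the authors' p-values, and each library left out in turn; leaving out both libraries numbered 1 at 0 h was added after seeing the data.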

Additional observations from a re-analysis of the deposited data

How the results depend on the processing

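No subunit mRNA passed the adjusted threshold under any alternative run. With the replicate block (paired numbers), 1 gene was called at 2 h, 0 at 0 h and 0 for the difference of effects, as without it, and no call changed. With the block the limma adjusted p of UQCRQ at 2 h was 0.716 and that of NDUFC1 for the difference of effects 0.315. Unadjusted limma p was smaller with the block for each member named by p. At 2 h it was 0.00226 for UQCRQ, 0.00439 for COX8A, 0.0167 for ATP5G3, 0.0178 for NDUFV3 and 0.0418 for NDUFS1. At 0 h it was 0.0134 for NDUFC1 and 0.0147 for NDUFB3. For the difference it was 0.00583 for NDUFC1, 0.0116 for UQCRQ, 0.0350 for NDUFV3 and 0.0400 for NDUFB3. The limma adjusted p with the block was 0.716 for each of these at 2 h, 0.707 for both at 0 h and 0.315 to 0.441 for the difference. The counts under 0.05 above come from the fit without the block. The share of all genes with it is not given, so these unadjusted p-values are not read as changes of the members. At 0 h the deviations of same-numbered libraries had correlations of 0.261, -0.0110 and 0.118 over all genes, where not every pair passed 0.1, and of 0.244, 0.352 and 0.411 over the 76 members, where every pair did. With both libraries numbered 1 at 0 h left out, 10 genes were called at 0 h and 2 for the difference of effects, none of them a subunit; UQCRHL at 0 h became 0.09, NDUFV3 at 0 h 0.02, and the difference for UQCRHL -0.02. All 2 h libraries were then below all 0 h libraries for 23 members in CP25 and 15 in vehicle, against 6 and 4 with all libraries. With the authors' p-values 0 genes were called at 2 h. With no filter, the median 2 h over 0 h ratio of the members lay 0.23 above that of all genes in vehicle, against 0.36. Leaving out each library in turn gave 1 to 7 genes called at 2 h, 1 to 4 at 0 h and 0 to 3 for the difference of effects, and 15 to 42 members above zero at 2 h, 31 to 76 at 0 h and 4 to 36 for the difference. The median of the members minus that of all genes ran from -0.06 to 0.01 at 2 h, from -0.00230 to 0.15 at 0 h and from -0.16 to -0.03 for the difference. The log2 change at 0 h then ran from -0.20 to 0.06 for NDUFB7, from -0.21 to 0.05 for UQCRHL and from -0.05 to 0.02 for NDUFV3. The cause of these moves was not tested. The other 286 values of single members kept their direction and their side of the threshold, and 171 summary values stayed within 1.5 times the count reported or within the spread between libraries. UQCRHL, the lowest member, had an estimated 245 to 713 fragments per library.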
